A study of Mus musculus with 8 samples.

Results

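The genes described here are the protein-coding mouse genes whose symbol begins with Nduf, most of which encode subunits or assembly factors of respiratory complex I. They were chosen by symbol in the deposited count table, which gave 46 genes of 51789, located on 17 chromosomes. Of these, 36 encode subunits (3 core and 7 accessory subunits of the N module, 4 core and 2 accessory subunits of the Q module, 9 subunits of the proximal and 10 of the distal membrane arm, and the acyl carrier protein Ndufab1), 8 encode assembly factors, and 2 are the related genes Ndufa4 and Ndufa4l2. Polyadenylated RNA was sequenced from whole abdominal mammary glands of female C57BL/6 mice collected 6 weeks after injection of small extracellular vesicles (sEVs), and the age of the mice is not given in the labels. The glands received sEVs released by AT3, a line of metastatic mammary adenocarcinoma cells from mouse, in normoxia (sEV-NORM, n = 3) or hypoxia (sEV-HYP, n = 2), or a preparation from non-conditioned medium as control (sEV-CTRL, n = 3). The labels name no transgene or deleted gene in any group, and each library is a mixture of all cells of a gland, so that fewer cells of a type and less RNA per cell cannot be told apart.

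Complex I is the first enzyme of the mitochondrial respiratory chain. It takes electrons from NADH in the N module, passes them through iron-sulfur clusters to ubiquinone in the Q module, and couples this to proton pumping in a membrane arm. The core subunits of the N and Q modules are encoded in the nucleus and those that form the proton channels in mitochondrial DNA. Accessory subunits surround the core, and assembly factors join the modules and leave. In the mammary gland the adipocytes, epithelium and muscle that border or fill the fat pad all use this enzyme, with skeletal muscle and brown fat known for a high content. The table has 0 genes of the mitochondrial chromosome, so the core subunits made in mitochondria were not analysed here.

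Total counts were 18194996 to 24622569 per library, and all 46 genes passed the filter on low counts, which 17858 genes passed in all. Defining markers of white adipocytes, luminal and basal epithelium, fibroblasts, endothelium and leukocytes were detected as the label of a whole gland requires, with no marker at 0 in every library. A library that stands apart for these genes is sEV-CTRL 3, which was the highest of the 8 libraries for 25 Nduf genes and the lowest for 5. Results that rest on it are given with and without it.

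The levels spanned a wide range. Levels are CPM (counts divided by library depth, with TMM scaling), divided by the summed exon length in kb where genes are compared with each other. Per kb, Ndufa4 was the highest at 382 CPM and its relative Ndufa4l2 the lowest at 2.17 CPM, with a median of 40.9 over the 46 genes. Ndufa4 was first described as a complex I subunit and is now placed in complex IV, and Ndufa4l2 is a known target of the hypoxia-inducible factors that restrains mitochondrial respiration. Among the core subunits of the N module, Ndufv2 had the highest level per kb (71.4) and Ndufv1, which binds the NADH and flavin, the lowest (10.4). Among those of the Q module, Ndufs3 was highest (90.1) and Ndufs7 lowest (30.2). Accessory subunits of the N module ranged from Ndufv3 (25.3) to Ndufa2 (232), and those of the Q module from Ndufa9 (35.7) to Ndufa5 (40.3). Subunits of the proximal arm ranged from Ndufa13 (30.3) to Ndufs5 (207), and those of the distal arm from Ndufb2 (6.06) to Ndufb6 (139). The assembly factors lay lower, from Ndufaf2 (3.19) to Ndufaf1 (27.7), and 5 of the 7 genes under 10 CPM per kb were assembly factors.

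**Figure D1:**
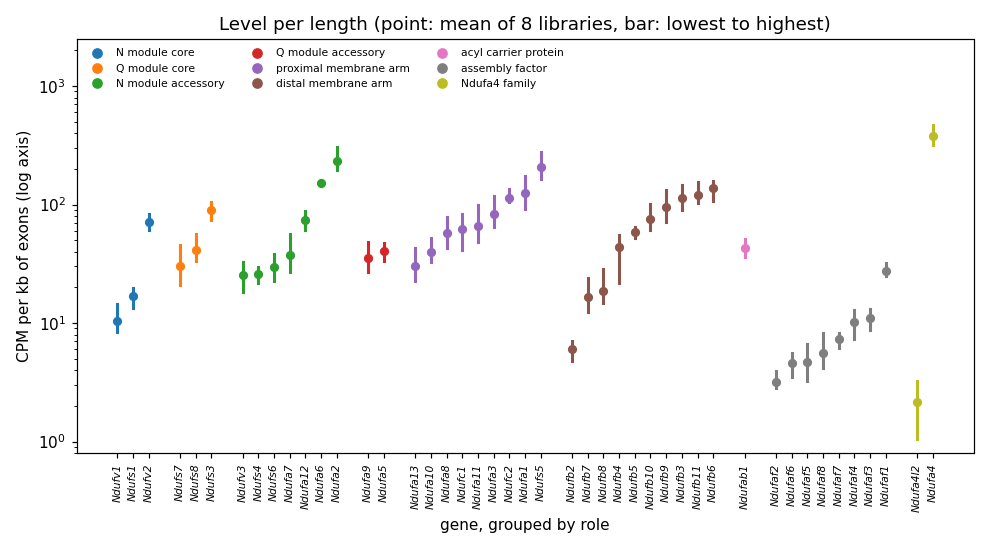
Level of 45 Nduf genes in CPM per kb of exons, on a log axis, grouped by role. Points are means of 8 libraries and bars run from the lowest to the highest library. Assembly factors (3.19 to 27.7) sit below most subunits, and Ndufa4 (382) and Ndufa4l2 (2.17) mark the ends of the range.

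Neighbours in this order mostly overlapped in their spread over libraries, as the plot of levels by role shows, whereas the ends of the range did not. The median SD of log2 CPM over the 8 libraries was 0.22 for the Nduf genes, 0.32 for all tested genes, and 0.22 for the 7838 genes in the same range of levels. The exon length of a gene depends on its annotated transcripts, and with the length of the longest transcript Ndufa7 moved most in the order, from place 26 to place 14. With that length some extremes by role changed. Among N module accessory subunits Ndufa6 (239) was highest, before Ndufa2 (232), and Ndufs6 (35.0) lowest, below Ndufv3 (39.9). Ndufa9 (51.9) lay above Ndufa5 (47.5) in the Q module, and Ndufb9 (139.3) just above Ndufb6 (139.0) in the distal arm. The other extremes by role named above stayed the same. Ndufb2 stayed at place 41, with 5628 bases of exons and 4371 in its longest transcript. For such a gene this check cannot separate a low level from a long annotation.

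The promoters were searched for 5 short motifs, a feature not used to choose the genes. Windows from 250 bases before to 50 after the RefSeq start (GRCm38.p6) were at hand for 40 of the 46. The letters AAGATGGC, a core of the binding site of the transcription factor YY1, were found in 8 of 40 windows (20%), compared with 4.21% of the 11506 windows of tested protein-coding genes. All 8 matches lay on the strand of the gene and began 11 to 39 bases after the start. On that strand, 2.03% of all windows held a match anywhere in the 50 bases after the start, compared with 20% of the Nduf windows. The letters GCGCATGC, a core of the site of nuclear respiratory factor 1 (NRF1), were found in 5 windows (12.5%, 4.95% of all windows). The motif overlaps its own reverse complement in the palindrome GCGCATGCGC, so 1 site can match on both strands. The ETS family core CCGGAAG was in 6 windows (15%, 16.6% of all), the estrogen-related receptor (ERR) core AAGGTCA in 3 (7.5%, 3.13% of all), and the hypoxia response core ACGTG in 7 (17.5%, 24.5% of all). Each motif was searched on both strands, and a match describes the letters and is not evidence of binding.

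The stretches below run from 120 bases before to 30 after the start and show 3 genes with the YY1 letters and 2 with those of NRF1. Capitals mark AAGATGGC in Ndufc1, Ndufa3 and Ndufaf8, CCGGAAG in Ndufaf8, and GCGCATGC or its reverse complement GCATGCGC in Ndufa8 and Ndufaf4.
Ndufc1 (chr3:51408926-51409075, minus strand): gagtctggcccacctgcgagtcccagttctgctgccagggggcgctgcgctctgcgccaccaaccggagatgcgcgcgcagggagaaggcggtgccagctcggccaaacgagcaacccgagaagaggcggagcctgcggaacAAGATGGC
Ndufa3 (chr7:3617253-3617402, plus strand): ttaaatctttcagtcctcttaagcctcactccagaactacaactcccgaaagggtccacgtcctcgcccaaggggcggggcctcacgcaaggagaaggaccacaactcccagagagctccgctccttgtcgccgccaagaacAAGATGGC
Ndufaf8 (chr11:120098814-120098963, plus strand): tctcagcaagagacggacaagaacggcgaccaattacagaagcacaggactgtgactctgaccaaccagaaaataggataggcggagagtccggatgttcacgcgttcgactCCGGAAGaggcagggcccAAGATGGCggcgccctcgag
Ndufa8 (chr2:36049309-36049458, minus strand): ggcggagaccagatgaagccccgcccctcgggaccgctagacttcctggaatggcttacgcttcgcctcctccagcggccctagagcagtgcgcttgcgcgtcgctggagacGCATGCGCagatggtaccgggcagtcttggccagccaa
Ndufaf4 (chr4:24897963-24898112, plus strand): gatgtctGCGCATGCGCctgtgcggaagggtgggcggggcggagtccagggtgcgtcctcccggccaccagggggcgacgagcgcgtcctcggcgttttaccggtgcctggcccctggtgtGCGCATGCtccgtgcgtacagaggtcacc
In Ndufc1 and Ndufa3, both subunits of the proximal membrane arm, the YY1 letters close the stretch, while in the assembly factor gene Ndufaf8 they follow an ETS match. Ndufa8, also a proximal arm subunit, has the NRF1 letters next to the start. The stretch of the assembly factor gene Ndufaf4 has them at 2 places, the first of which is the full palindrome.

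Many Nduf genes lay head to head with another gene. A protein-coding neighbour on the opposite strand, with a start at most 1000 bases away or overlapping by at most 500, was found for 19 of 46 Nduf genes (41.3%) and for 12.7% of the 14781 tested protein-coding genes. The neighbours include Rps28, a ribosomal protein gene whose start lies 10 bases from that of Ndufa7, Mrpl36, a mitochondrial ribosomal protein gene whose start overlaps that of Ndufs6 by 29 bases, and Eef1b2, a translation elongation factor gene that overlaps Ndufs1 by 8 bases.

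The comparison of sEV-HYP with sEV-NORM asks what hypoxia of the releasing cells adds, and here nearly all Nduf genes had small positive values. Of 46, 45 had a positive log2 fold change (47% of the 17858 genes tested), with a median of 0.24, compared with -0.02 over all genes. The 46 values come from the same glands and are not independent of each other. Both sEV-HYP libraries were above all 3 sEV-NORM libraries for 31 Nduf genes, a pattern shown by 12.3% of all tested genes. All 36 subunits of complex I had positive values, from 0.12 for Ndufa6 to 0.44 for Ndufc1. The unadjusted P threshold of 0.05 was passed by 3 genes, all of them higher, against 3.95% of all genes in either direction and 2.25% higher. After Benjamini-Hochberg adjustment over all genes, edgeR called 0 of 17858 genes (706 had an unadjusted P under 0.05), with a smallest adjusted P of 0.807. DESeq2 fitted to all libraries called 16 genes after adjustment and, fitted to the 2 groups alone, 83, among them 0 Nduf genes.

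**Figure D2:**
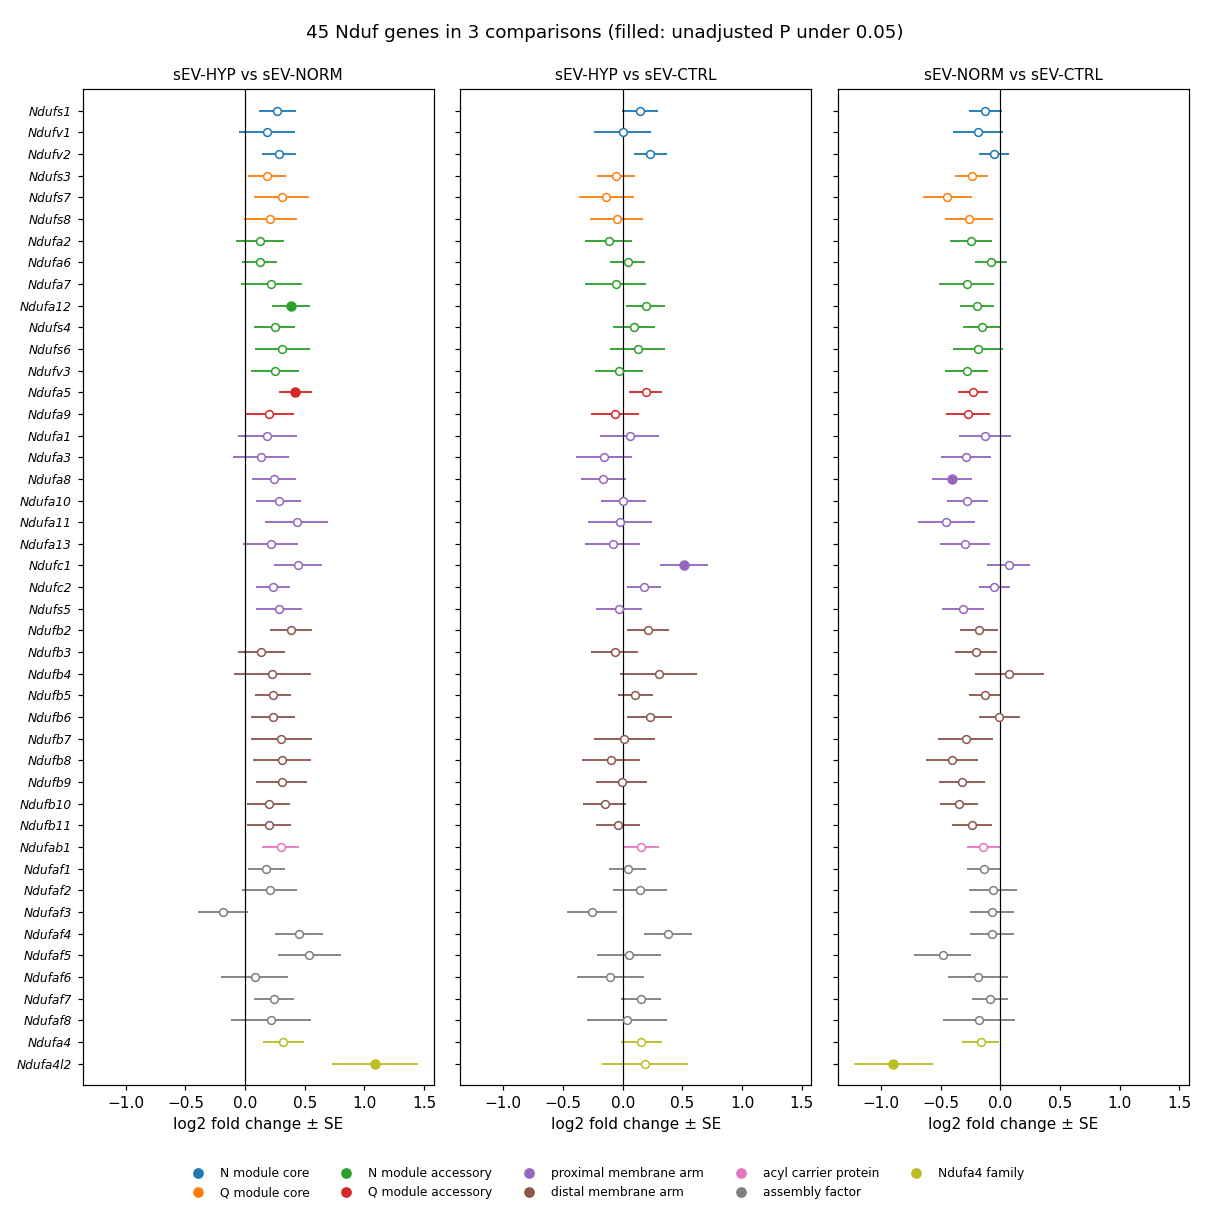
Log2 fold change of 45 Nduf genes with its standard error in the 3 comparisons, colored by role. Filled points passed an unadjusted P of 0.05. In sEV-HYP vs sEV-NORM, 44 of the 45 points lie right of 0, in sEV-HYP vs sEV-CTRL 25, and in sEV-NORM vs sEV-CTRL 2.

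Ndufa5, an accessory subunit of the Q module (chr6:24518666-24528013), had the smallest P. Its level was 48.3 and 48.4 CPM in the sEV-HYP glands, 38.3, 34.3 and 36.0 in the sEV-NORM glands and 40.3, 42.6 and 44.1 in the sEV-CTRL glands. Both sEV-HYP values were above all 6 others. The log2 fold change over sEV-NORM was 0.42 ± 0.14 (SE), or 1.34-fold, with unadjusted P = 0.0144 and adjusted P = 0.9998 in edgeR's quasi-likelihood test. No Nduf gene had an adjusted P below 0.9998 in any comparison.

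Ndufa4l2 (chr10:127514967-127517154) had the largest change. Its level was 2.70 and 3.58 CPM with sEV-HYP, 1.81, 1.15 and 1.47 with sEV-NORM, and 2.94, 2.00 and 3.34 with sEV-CTRL, each from 26 to 67 counts. The sEV-NORM glands were below all other glands. The log2 fold change of sEV-HYP over sEV-NORM was 1.09 ± 0.36 (2.12-fold, unadjusted P = 0.0147). Exons of this gene overlap those of Shmt2 on the opposite strand, and whether reads were counted by strand is not given in the sources used here.

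Ndufa12, an accessory subunit of the N module (chr10:94198720-94221443), had 130 and 138 CPM with sEV-HYP, 109, 94.8 and 103 with sEV-NORM, and 123, 99.4 and 129 with sEV-CTRL. The sEV-HYP values lay above all others, by a small margin over the highest sEV-CTRL gland. The log2 fold change over sEV-NORM was 0.39 ± 0.16 (unadjusted P = 0.039). A processed pseudogene, Gm15920 on chromosome 5, shares 99.5% of 402 bases with it and took 22.7% to 28.4% of the counts of the pair. With those counts added to Ndufa12 the log2 fold change was 0.37 and no longer passed the threshold (unadjusted P = 0.058).

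The core subunits named here had values near the median of the family, and none passed the test. In the N module, the log2 fold changes of sEV-HYP over sEV-NORM were 0.28 ± 0.14 for Ndufv2, 0.27 ± 0.15 for Ndufs1, which carries iron-sulfur clusters, and 0.18 ± 0.23 for Ndufv1. In the Q module the values included 0.31 ± 0.23 for Ndufs7, 0.21 ± 0.22 for Ndufs8 and 0.18 ± 0.16 for Ndufs3. Ndufv2 had 171 and 178 CPM with sEV-HYP and 148, 131 and 152 with sEV-NORM, and Ndufs1 had 145 and 159 with sEV-HYP and 138, 109 and 132 with sEV-NORM. For Ndufv1, Ndufv2, Ndufs1, Ndufs3 and Ndufs7 both sEV-HYP glands were above all sEV-NORM glands, while for Ndufs8, with 61.9 and 49.3 against 51.0, 46.1 and 46.9, the groups overlapped.

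Among the assembly factors none passed the test. Ndufaf5, which modifies Ndufs7, had 9.29 and 10.2 CPM with sEV-HYP and 8.40, 5.76 and 5.96 with sEV-NORM, a log2 difference of 0.54 ± 0.27. Ndufaf4 had 50.2 and 47.9 with sEV-HYP and 34.2, 41.0 and 32.3 with sEV-NORM (0.45 ± 0.20), just short of the threshold (unadjusted P = 0.0504). Ndufaf6 had 6.23 and 4.98 with sEV-HYP and 6.11, 5.49 and 4.30 with sEV-NORM, so that the groups overlapped (0.08 ± 0.28). Ndufaf3 was the 1 gene of the family with a negative value, with 19.4 and 15.9 against 20.2, 19.4 and 20.6 (-0.18 ± 0.21). Ndufa4, placed with complex IV, had 544 and 644 with sEV-HYP and 497, 443 and 489 with sEV-NORM (0.32 ± 0.17).

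The comparison of sEV-HYP with sEV-CTRL, which sets hypoxic vesicles against the medium control, gave no common direction. Positive values were found for 26 of 46 genes (47.5% of all tested genes) with a median of 0.04, and both sEV-HYP glands were above all 3 controls for 11 (6.7% of all genes) and below them for 0. One gene passed an unadjusted P of 0.05 (2.45% of all genes, 1.39% higher). This was Ndufc1, a small subunit of the proximal membrane arm (chr3:51404677-51408988), at 109 and 125 CPM with sEV-HYP, 84.2, 99.7 and 61.3 with sEV-CTRL, and 88.0, 81.3 and 88.2 with sEV-NORM. Its sEV-HYP values were above all others, and its log2 fold change over sEV-CTRL was 0.52 ± 0.20 (unadjusted P = 0.031). Ndufaf4 (0.38 ± 0.20) and Ndufb4 (0.30 ± 0.32) followed, and the lowest values were those of Ndufaf3 (-0.25 ± 0.21), Ndufa8 (-0.16 ± 0.19) and Ndufa3 (-0.16 ± 0.23).

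The outcome of that comparison turned on the library sEV-CTRL 3. Without it, 42 of 46 genes were positive with a median of 0.14, and 0 passed the test (2.76% of all genes did), with Ndufc1 at 0.35 (unadjusted P = 0.057). Without sEV-CTRL 2 instead, 18 were positive and 3 passed, while 8.32% of all genes passed. In sEV-CTRL 3 the Nduf genes spread more than in any other library, as the plot of each gene by library shows. The median deviation from the mean of the gene was 0.36 (log2 CPM) there and -0.25 to 0.16 in the other 7 libraries, while Ndufb4 (-0.95), Ndufc1 (-0.56), Ndufaf4 (-0.44) and Ndufb6 (-0.37) lay far below 0 in it. These 4 genes are among those with the highest log2 fold changes of sEV-HYP over sEV-CTRL.

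**Figure D3:**
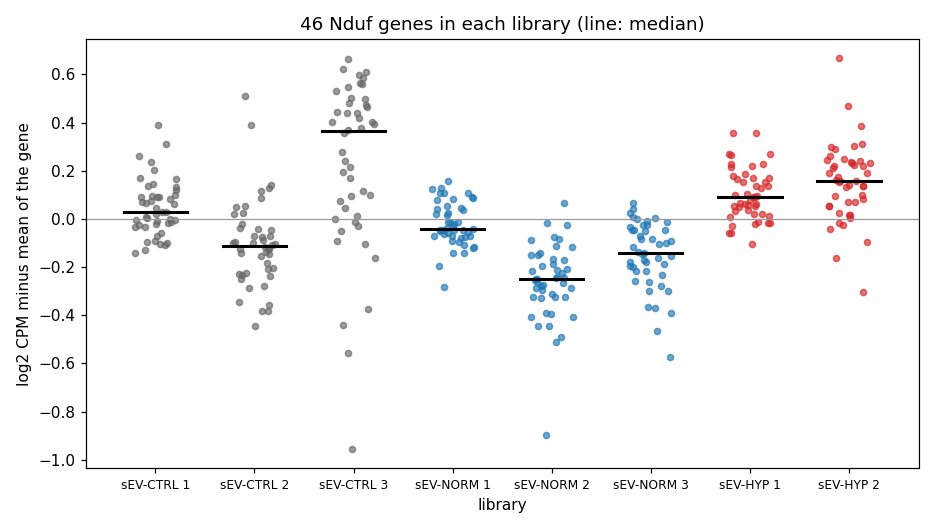
Log2 CPM of each of the 46 Nduf genes minus the mean of that gene over the 8 libraries, by library. Points are genes, black lines medians, and colors the groups. The medians are 0.36 in sEV-CTRL 3, -0.25 in sEV-NORM 2 and 0.16 in sEV-HYP 2, and the points of sEV-CTRL 3 are the most spread.

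The deviations in sEV-CTRL 3 went with base composition. For the 23 Nduf genes whose longest transcript had a GC content above the median of the family (50.1%), the median deviation in that library was 0.44, and for the other 23 it was 0.04. Over all 17817 tested genes with a transcript, split at the same value, the medians were 0.20 and -0.15. Pearson's r across the 46 genes was 0.53 in sEV-CTRL 3 and -0.34 to 0.12 in the others, as a description across genes of 1 library that share its depth and preparation. Single genes departed from this, among them Ndufb4, with a GC content of 52.2% and the lowest deviation. Ndufb8, with a GC content of 46.9%, had the highest (0.66). The part of base composition in the comparisons was examined by taking the GC trend of each library into the fit, which left 45, 33 and 3 positive genes in the comparisons of sEV-HYP with sEV-NORM, sEV-HYP with sEV-CTRL and sEV-NORM with sEV-CTRL.

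**Figure D4:**
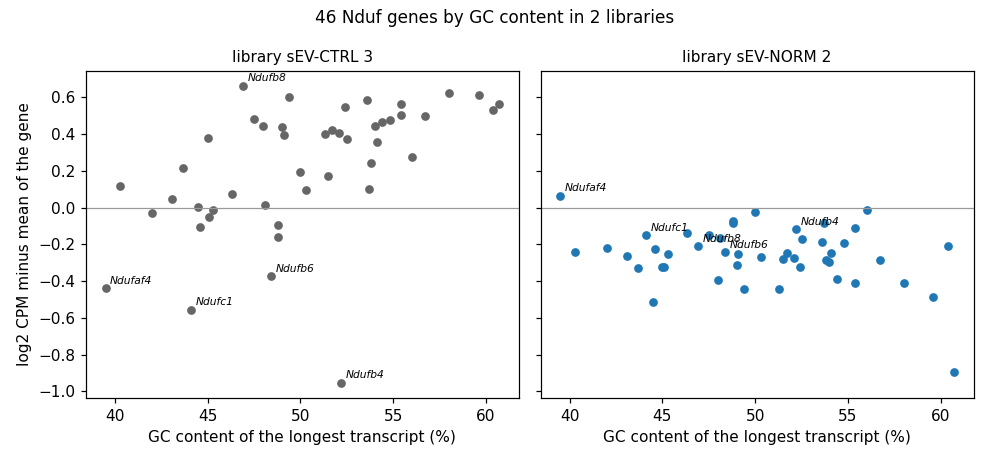
Deviation of each Nduf gene (log2 CPM minus its mean) against the GC content of its longest transcript in percent, in sEV-CTRL 3 and, for contrast, sEV-NORM 2. In sEV-CTRL 3 the points tend to rise with GC content (r = 0.53), with exceptions that include Ndufb4 and Ndufb8. In sEV-NORM 2 they lie mostly below 0 at every GC content (r = -0.30).

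Ndufb4, a subunit of the distal arm, had 84.9, 106 and 41.8 CPM in the sEV-CTRL glands, 87.4, 74.6 and 83.3 with sEV-NORM, and 85.6 and 106 with sEV-HYP. The control gland 3 was the lowest by far. The processed pseudogene Ndufb4c on chromosome 15 is identical to it over 390 bases and took 45.8% to 76.0% of the counts of the pair, the highest share in sEV-CTRL 3, so the division of reads between them is uncertain. Ndufab1 and its copy Gm4459 (99.8% identity) split in a narrower range, with 10.5% to 14.4% of the counts in the copy, and for all other pairs the copy had at most 2.09%.

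In sEV-NORM vs sEV-CTRL, which asks what normoxic vesicles alone do, 44 of 46 Nduf genes had negative values (50.2% of all tested genes), with a median of -0.19 against 0.00 over all genes. This comparison shares the sEV-NORM libraries with the first, and its values too are not independent across genes. All 3 sEV-NORM glands were below all controls for 6 Nduf genes (2.17% of all genes), namely Ndufa4l2, Ndufa5, Ndufab1, Ndufb10, Ndufs3 and Ndufs7. The threshold was passed by 2 genes, both lower (1.62% of all genes in either direction, 0.734% lower). Ndufa4l2 had a log2 fold change of -0.90 ± 0.33 (unadjusted P = 0.024), from the values given above. Ndufa8 (chr2:36036326-36049406) had 47.2, 37.1 and 42.4 CPM with sEV-NORM and 53.4, 47.2 and 67.2 with sEV-CTRL, groups that touched at their edges (-0.40 ± 0.17, unadjusted P = 0.040).

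At the low end followed Ndufaf5 (-0.48 ± 0.24) and Ndufa11 (-0.45 ± 0.24), and at the high end Ndufb4 (0.08 ± 0.29), Ndufc1 (0.07 ± 0.18) and Ndufb6 (-0.01 ± 0.17). Without sEV-CTRL 3 the median was -0.11, 8 genes were positive and 0 passed the test (1.34% of all genes did), and without sEV-CTRL 2 the median was -0.31 and 11 passed (5.75% of all genes). Without sEV-NORM 2 the median was -0.15 and 0 passed (1.26% of all genes).

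Summed over the 46 genes, the level was 4528, 4157 and 5097 CPM in the sEV-CTRL glands, 4300, 3718 and 4094 in the sEV-NORM glands, and 4676 and 4961 in the sEV-HYP glands. The sEV-HYP sums lay above all sEV-NORM sums and within the range of the controls, whose upper end is sEV-CTRL 3 (5097). With sEV-CTRL 3 set aside, both sEV-HYP sums lay above the remaining controls (4528 and 4157). The lowest sum was that of sEV-NORM 2, the library with the lowest value for 30 of the 46 genes. Without it, 45 genes were positive in sEV-HYP vs sEV-NORM, with a median of 0.18 and 3 genes past the threshold (2.84% of all genes passed).

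Markers of skeletal muscle, a tissue rich in complex I that borders the gland, varied far more than the Nduf genes. The summed level of the 14 markers was 811, 11610 and 2891 CPM in the controls, 3830, 37.8 and 2003 with sEV-NORM, and 5940 and 16180 with sEV-HYP, and all 14 were detected. It was lowest in sEV-NORM 2 and highest in sEV-HYP 2, as the Nduf sum was lowest in the first and second highest in the latter. The order differed in the controls, where sEV-CTRL 2 had the most muscle RNA and the lowest Nduf sum. In sEV-HYP vs sEV-NORM, 12 of the 14 markers had positive values (47% of all tested genes), with a median of 2.36, and 0 passed the threshold. Both sEV-HYP glands were above all sEV-NORM glands for 11 of them (12.3% of all tested genes). Muscle RNA thus went with group in this comparison, and the 2 cannot be told apart. With the muscle score as a covariate, 45 Nduf genes were positive in sEV-HYP vs sEV-NORM with a median of 0.21, and 2 passed the threshold (4.64% of all genes did), with Ndufa5 at 0.36 (unadjusted P = 0.067) and Ndufa12 at 0.38 (unadjusted P = 0.085) no longer among them. White adipocyte markers summed to 7991, 9692 and 12830 in the controls, 9734, 6686 and 10820 with sEV-NORM and 7555 and 11840 with sEV-HYP, also lowest in sEV-NORM 2, and their part in the result was not tested.

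Markers of 4 other cell types had values mostly or all of 1 sign in sEV-HYP vs sEV-NORM, where 47% of all tested genes were positive. Brown fat is rich in complex I, and 8 of the 9 brown adipocyte markers tested had positive values (median 0.64), of which 0 passed the threshold. The summed level of the 10 markers was 28.7 to 44.0 CPM in the controls, 30.8 to 40.4 with sEV-NORM and 43.7 and 74.5 with sEV-HYP. Ucp1, which defines these cells, was at 0 in sEV-CTRL 2 and sEV-CTRL 3. All 5 neutrophil markers tested had negative values and 3 passed, with sums over 6 markers of 11.6 to 62.1 CPM in the controls, 32.2 to 130.2 with sEV-NORM and 19.4 and 8.35 with sEV-HYP, where Ly6g was at 0 in both. The 7 B and plasma cell markers (median -0.65) and the 7 T cell markers (median -0.28) also had negative values throughout, and 0 passed. Their sums were 1430 to 2628 CPM (B and plasma cell) and 426 to 573 CPM (T cell) with sEV-NORM, 1508 and 755 CPM and 504 and 294 CPM with sEV-HYP, and 1077 to 3135 CPM and 293 to 563 CPM in the controls. For both lists the sums of sEV-HYP and sEV-NORM overlapped. Other lists leaned to 1 side too, with 0 genes past the threshold. Among them were proliferation (6 of 6 positive, median 0.18), suprabasal epidermis (3 of 3 tested negative, -1.19) and macrophage markers (6 of 7 negative, -0.08). In sEV-HYP vs sEV-CTRL, 7 of the 9 brown adipocyte markers tested were positive (47.5% of all tested genes). There 2 of them passed the threshold, both higher (1.39% of all genes). The part of all these lists in the result was not tested.

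**Figure D5:**
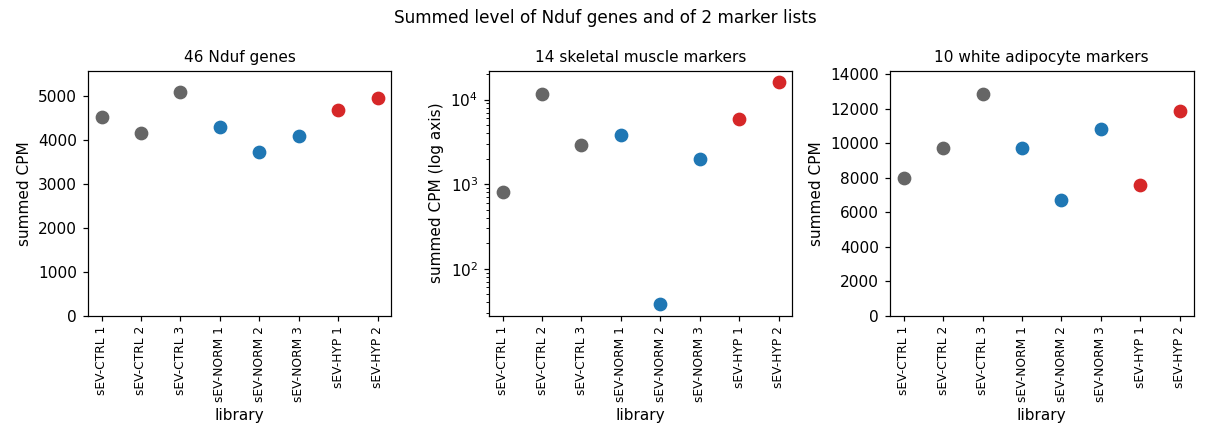
Summed CPM of the 46 Nduf genes, of 14 skeletal muscle markers (log axis) and of 10 white adipocyte markers in each library, colored by group. The Nduf sum ranges from 3718 to 5097 while the muscle sum ranges from 37.8 to 16180, and sEV-NORM 2 is the lowest point in all panels.

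Genes of the other respiratory complexes, from lists written by hand, had medians between 0.16 and 0.30 in this comparison. In sEV-HYP vs sEV-NORM, all 8 genes of complex II (median 0.16), 9 of complex III (0.30), 10 of complex IV (0.24) and 15 of complex V (0.27) had positive values. The threshold was passed by Sdhd, a membrane anchor of complex II (0.44 ± 0.16, unadjusted P = 0.022), Cox7c, a small subunit of complex IV (0.37 ± 0.14, unadjusted P = 0.023), and Atp5g3, a gene for the c ring of ATP synthase (0.45 ± 0.15, unadjusted P = 0.017). Cox7c had 165 and 166 CPM with sEV-HYP, 137, 126 and 121 with sEV-NORM, and 132, 139 and 130 with sEV-CTRL, with no overlap of the sEV-HYP glands with the others, and it also passed against sEV-CTRL (0.31 ± 0.14, unadjusted P = 0.049). In sEV-NORM vs sEV-CTRL the medians were -0.21, -0.32, -0.24 and -0.17 for complexes II to V, and in sEV-HYP vs sEV-CTRL 0.03, 0.01, -0.01 and 0.11. Of 3 isoforms of complex IV found in muscle and heart, Cox7a1 was higher in sEV-HYP vs sEV-NORM (1.56 ± 0.64, unadjusted P = 0.038). In the controls Cox7a1 (9.62 CPM) and Cox6a2 (32.3 CPM) were highest in sEV-CTRL 2, the gland with the most muscle RNA. Cox8b, which is also on the list of brown adipocyte markers, was highest in sEV-CTRL 3 (20.7 CPM).

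Assembly factors of complex I that do not carry the Nduf name had values of both signs. Of the 13 found among 14 listed, 8 had positive values in sEV-HYP vs sEV-NORM, with a median of 0.12. Ecsit, a factor of the intermediate assembly complex, had 13.0 and 13.5 CPM with sEV-HYP and 9.53, 8.46 and 10.6 with sEV-NORM (0.48 ± 0.20, unadjusted P = 0.039), and Tmem126a, a factor for the membrane arm, had 41.4 and 42.9 against 34.8, 33.1 and 33.6 (0.32 ± 0.14, unadjusted P = 0.046). For both genes the sEV-HYP glands were above all sEV-NORM glands. The lowest fold of that list was that of Dmac2 (-0.29 ± 0.26). None of the 12 regulators of mitochondrial biogenesis passed the test (medians 0.03, -0.01 and -0.03 in the 3 comparisons). Ppargc1a, a coactivator of these genes, had the highest fold of that list, with 12.4 and 15.2 CPM with sEV-HYP, 5.35, 7.62 and 13.1 with sEV-NORM, and 8.32, 15.1 and 8.91 with sEV-CTRL, in groups that overlapped (0.67 ± 0.39). Yy1, the factor whose letters were searched above, was at 150 and 153 with sEV-HYP and 137, 164 and 144 with sEV-NORM (0.03 ± 0.16).

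The head-to-head neighbours had values of both signs. Of 17 tested neighbours, 7 had a positive log2 fold change in sEV-HYP vs sEV-NORM with a median of -0.07, while their 17 Nduf partners were all positive with a median of 0.24. In sEV-NORM vs sEV-CTRL, 7 of 17 neighbours and 0 of 17 partners were positive. The difference between neighbours and partners was not tested.

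The gene Ndufb1-ps, annotated as a noncoding transcript of a bidirectional promoter and hence not counted as a member, had 4060 to 5692 counts per library. Its log2 fold change in sEV-HYP vs sEV-NORM was 0.15 ± 0.15, within the range of the subunits.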

How the data were processed

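RNA of 8 mammary glands was sequenced, 1 library each, with groups taken from the labels (sEV-CTRL and sEV-NORM, 3 each, sEV-HYP, 2). Libraries were made with the Lexogen Sense mRNA-Seq kit. The authors aligned reads with STAR to mm10 (GRCm38) and estimated gene counts with RSEM 1.2.12 against Ensembl annotation. The file as deposited holds counts per gene, in whole numbers and not normalized, and how RSEM's estimates were rounded is not given in the sources used here. Mitochondrial genes are not analysed here. Symbols, positions and exon lengths came from GENCODE M21 and promoters from RefSeq (GRCm38.p6).

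Counts were tested in R 4.3.3 with edgeR 4.0.16 (filterByExpr, minimum count 10, TMM, 1 quasi-likelihood model of 3 groups, two-sided). The threshold was the study's unadjusted P of 0.05, beside Benjamini-Hochberg adjusted P over 17858 genes, with DESeq2 1.42.0 as an alternative. Log2 CPM used a prior count of 2. Copies with at least 95% identity over 200 bases were found with BLAST+ 2.17.0. Total counts of 18194996 to 24622569 and 5 residual degrees of freedom set the precision, and P values measure the spread between these glands.

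Named were the core subunits, Ndufa4 and Ndufa4l2, genes past the threshold, the 3 highest and lowest folds per comparison, the extremes of level per role, and list genes past the threshold or at an extreme. One gene that this rule names is not reported here, though the counts and medians over the family hold it. The genes, lists and tests were chosen with earlier results of these data known.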

Additional observations from a re-analysis of the deposited data

How the results depend on the processing

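The median log2 fold change of the 46 Nduf genes was 0.24 in sEV-HYP vs sEV-NORM, 0.04 in sEV-HYP vs sEV-CTRL and -0.19 in sEV-NORM vs sEV-CTRL. Under every alternative run it moved by less than 0.16, the SD within groups of the median deviation of these genes. That SD is larger than the sEV-HYP vs sEV-CTRL median itself, so it cannot show whether the sign of that median is stable. Leaving out 1 library at a time gave medians of 0.18 to 0.32, -0.11 to 0.14 and -0.31 to -0.11, and positive counts of 44 to 45, 18 to 42 and 2 to 8. With the counts of pseudogene copies added, 1 gene was positive in sEV-NORM vs sEV-CTRL.

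The number of genes past an unadjusted P of 0.05 depended more on the fit. In sEV-HYP vs sEV-NORM it was 3 (3.95% of all genes), and 7 with DESeq2 on the 2 groups (4.54%), 8 with edgeR on the 2 groups (6.07%), 5 with the replicate block (4.31%) and 6 with the GC correction (4.84%). In sEV-HYP vs sEV-CTRL it was 1, and 0 with DESeq2 or edgeR on the 2 groups, the replicate block or the muscle covariate (1.5% to 3.21% of all genes). In sEV-NORM vs sEV-CTRL it was 2, and 1 with DESeq2 or edgeR on the 2 groups or the muscle covariate (1.14% to 2.41% of all genes), and 5 with the GC correction (1.85%). The cause was not tested. Leaving out 1 library gave 0 to 6 (0 without sEV-HYP 2, 1 without sEV-HYP 1, 5 without sEV-CTRL 2, 6 without sEV-CTRL 3), 0 to 3 and 0 to 11, with 2.21% to 5.57%, 1.92% to 8.32% and 1.26% to 5.75% of all genes. With 1 sEV-HYP library left, that gland is assumed to vary like the other groups.

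Among named genes in sEV-NORM vs sEV-CTRL, Ndufb6 turned from -0.01 to 0.0049 with the replicate block and 0.029 with the muscle covariate, and Ndufb4 from 0.08 to -0.062 with the copies added. Without 1 library the values ranged from -0.22 to 0.37 for Ndufb4, -0.15 to 0.090 for Ndufb6 and -0.10 to 0.24 for Ndufc1, and in other comparisons from -0.091 to 0.23 for Ndufaf6 (sEV-HYP vs sEV-NORM) and -0.32 to 0.083 for Ndufa3 (sEV-HYP vs sEV-CTRL). Correlations of deviations from group means were -0.416 to 0.369 for same-numbered libraries and -0.369 to 0.467 for the other pairs. The deviations of the 2 sEV-HYP libraries mirror each other, so pairs with these libraries cannot tell whether the numbers mark a pairing. Between sEV-CTRL and sEV-NORM, the correlations were -0.416 to -0.0131 for same-numbered libraries and -0.316 to 0.467 for the others. Same-numbered libraries of these 2 groups were thus not more alike. The GC correction and the added copies were chosen after seeing the data. Ndufa4l2 had 26 to 67 counts per library and every other Nduf gene at least 75, so depth limits Ndufa4l2 the most.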
